A study of Mus musculus with 6 samples.

Results

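HOXA13-only binding sites are the regions of the forelimb genome where a HOXA13 peak was called and no HOXD13 peak overlapped it. They were chosen by 2 values of the deposited peak lists: a −log10 q of at least 5 in the HOXA13 list, where q is the false discovery rate the peak caller gave the region, and the lack of any overlap, of 1 bp or more, with a region of the HOXD13 list. The rule left 6750 sites, which were 17.1% of the 39545 HOXA13 regions with a −log10 q of at least 5 and came from 66761 HOXA13 regions in all. The other 32795 of the 39545, which overlapped HOXD13, are called joint sites here and serve as the comparison, together with 1714 HOXD13-only sites chosen by the mirror rule.

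HOXA13 and HOXD13 are homeodomain transcription factors of the most posterior Hox paralogy group, and embryos that lack both fail to form digits. They bind closely related AT-rich sequences and their expression domains overlap in the distal limb bud, so that a site found for one of them is usually found for the other. HOXA13 is known to open chromatin at enhancers of digit cells, and the acetylation of histone H3 at lysine 27 (H3K27ac) marks active enhancers and promoters.

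The 6 samples of the series were ChIP-seq libraries of wild-type mouse forelimbs of the strain B6CBAF1, labelled E12 and re-analysed from earlier work. This label leaves out the decimal of the embryonic day. All 6 samples were of the same age, midway between E12 and the following whole day. The distal forelimb (DFL, the future digits) and the proximal forelimb (PFL, the future arm) each had 1 library of H3K27ac, 1 of H3K27me3, the mark of Polycomb repression, and 1 of CTCF, a protein of domain borders and insulators. The HOXA13 and HOXD13 lists were labelled as wild-type forelimb (FL) of an earlier stage, E11, and belong to none of the 6 samples. HOX binding and chromatin were therefore read in other embryos and at another stage, and HOXA13-only is a statement about 2 lists of 1 library each.

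Sequences reaching 50 bp to each side of the summit are given here for 9 HOXA13-only sites, on the plus strand of mm10 (GRCm38), to show what lay under the strongest sites and under a leading site of each chromatin class. Capitals mark matches to the HOX13 motif, taken as CAATAAA or TCGTAAA on either strand, and to the palindrome CCCNNGGG. Sites were set by rank in their class, and those of rank 4 and 9 were added after their values were seen, because they were the 2 of the 12 strongest with a HOX13 motif.
Golim4 intron, rank 1, chr3:75891242-75891342: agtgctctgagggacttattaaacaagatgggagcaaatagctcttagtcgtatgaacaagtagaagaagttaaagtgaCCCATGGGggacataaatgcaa
Gene desert with G6pd2, rank 2, chr5:61117472-61117572: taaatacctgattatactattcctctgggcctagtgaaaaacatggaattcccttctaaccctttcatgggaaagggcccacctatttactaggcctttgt
4930535I16Rik, rank 4, chr4:124093359-124093459: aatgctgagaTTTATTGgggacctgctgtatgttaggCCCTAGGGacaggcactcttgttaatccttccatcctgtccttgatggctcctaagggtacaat
Near Tbx4, rank 9, chr11:85935435-85935535: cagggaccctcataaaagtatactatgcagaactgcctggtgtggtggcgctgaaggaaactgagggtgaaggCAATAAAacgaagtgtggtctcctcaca
Near Acvr2a, DFL H3K27ac alone, chr2:47872940-47873040: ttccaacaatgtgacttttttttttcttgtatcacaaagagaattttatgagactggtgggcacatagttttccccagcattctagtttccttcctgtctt
Apbb2 intron, PFL H3K27ac alone, chr5:66569393-66569493: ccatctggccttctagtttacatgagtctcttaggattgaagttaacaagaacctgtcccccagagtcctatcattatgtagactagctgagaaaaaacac
Gata4 intron, H3K27me3, chr14:63269850-63269950: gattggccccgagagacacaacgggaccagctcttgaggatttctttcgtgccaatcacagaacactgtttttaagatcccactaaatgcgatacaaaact
Gt(ROSA)26Sor intron, CTCF and H3K27ac, chr6:113076252-113076352: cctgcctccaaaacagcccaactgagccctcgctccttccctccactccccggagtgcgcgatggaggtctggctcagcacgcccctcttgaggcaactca
Upstream of H19, CTCF, chr7:142581243-142581343: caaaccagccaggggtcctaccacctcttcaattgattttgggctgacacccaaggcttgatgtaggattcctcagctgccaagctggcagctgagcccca

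The values that chose the sites are given as a description. The median HOXA13-only site was 336 bp long and had a fold enrichment, which is the summit pileup over the local background of the library, of 3.66 and a −log10 q of 6.92. The strongest reached a fold of 11.5 and a −log10 q of 57.4, which was rank 4036 among the 39545 HOXA13 regions. Joint sites were longer and stronger, with medians of 532 bp, 5.01-fold and 15.4. The last site inside the threshold had a −log10 q of 5.0022 and the first outside it 4.9947, with folds of 3.11 and 3.25. On the side of HOXD13, the closest site was separated from a HOXD13 region by 1 bp, while the smallest overlap of a joint site was 2 bp.

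Most HOXA13-only sites were weak. Of the 6750, 5527 had a −log10 q from 5 to 10, 1079 from 10 to 20, 141 from 20 to 50 and 3 above 50. They were 35.3% of the HOXA13 regions in the first of these classes, 10.1% in the second, 1.68% in the third and 0.0621% in the fourth. The number of fragments piled up at the summit, worked out from the fold and p of each region, had a median of 27 at HOXA13-only sites, with a range from 23 to 108, and of 42 at joint sites. At the most frequent local background a region needed at least 16 fragments to enter the HOXA13 list (background 6.10) and at least 19 to enter the HOXD13 list (background 7.71). A site with fewer HOXD13 fragments than that is counted as HOXA13-only, and the lists do not give the HOXD13 pileup where no region was called.

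**Figure D1:**
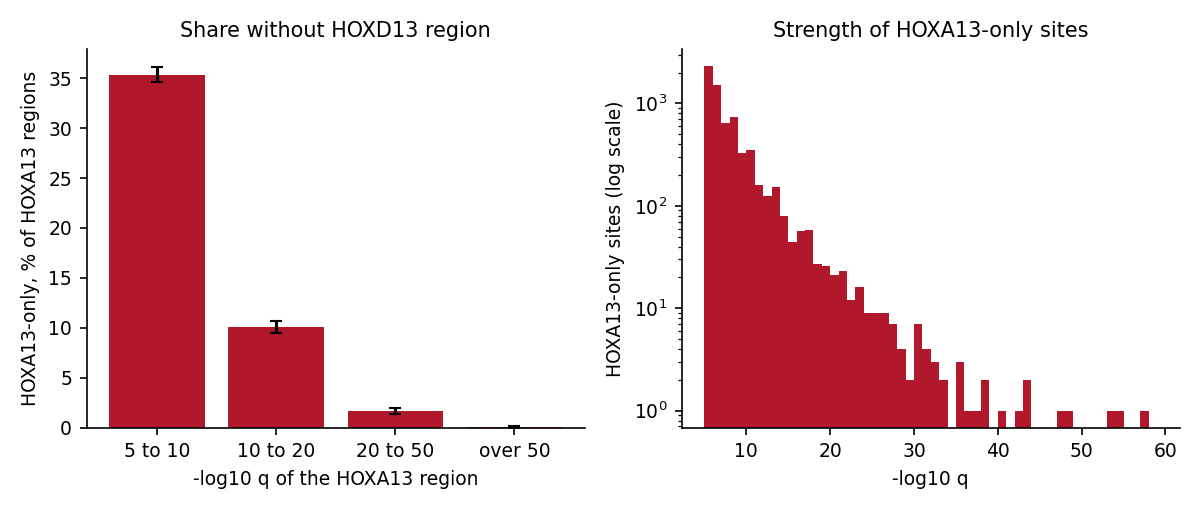
Left, share of HOXA13 regions that overlapped no HOXD13 region (y axis, percent, bars with Wilson 95% intervals) by the −log10 q of the HOXA13 region (x axis). Right, number of HOXA13-only sites (y axis, log scale) by −log10 q (x axis, bins of 1 unit). The share fell from 35.3% to 0.0621% across the 4 classes, and few sites had a −log10 q above 20.

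Most sites lay away from HOXD13 regions, and 48 (0.711%) lay within 100 bp of one. This distance is tied to the rule that chose the sites and is given as a description. The median distance to the nearest HOXD13 region was 13307 bp, 540 sites had one within 1 kb and 5804 (86.0%) within 50 kb. The sites were also spread out among themselves, with a median of 96802 bp from one summit to the nearest other one and 7.53% within 10 kb. The X chromosome held a larger share of them than the autosomes. On it, 145 of 558 HOXA13 regions were HOXA13-only (26.0%, Wilson 95% interval 22.5 to 29.8%), while the share on single autosomes ran from 15.6 to 18.7%. The X share was higher than that of the autosomes together in each class of strength with sites on X, with 42.9% (37.1 to 49.0%) against 35.2% at a −log10 q from 5 to 10, 17.9% (12.6 to 24.8%) against 9.98% from 10 to 20, and 5.61% (2.60 to 11.7%) against 1.63% from 20 to 50. The sex of the embryos is not given in the sources used here, and its part in this was not tested.

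With respect to genes, HOXA13-only sites were mostly distal and were placed much like joint sites. A summit lay within 2 kb of a protein-coding transcription start site (TSS) for 648 sites (9.60%, 8.92 to 10.3%), beside 9.85% of all HOXA13 regions with a −log10 q of at least 5. The difference from joint sites was −0.301 percentage points (95% interval −1.06 to 0.492). At least 50 kb separated 3516 summits (52.1%) from any such TSS, and over 200 kb separated 1324 (19.6%). Introns held 50.2% of the summits, exons 4.36% and intergenic DNA 45.4%. The HOXD13-only sites were placed differently, with 31.1% within 2 kb of a TSS, which put HOXA13-only sites 21.5 points lower (interval 19.2 to 23.8). Within classes of strength, HOXA13-only sites were less often next to a TSS than joint sites, at 10.4% against 13.3% for a −log10 q from 5 to 10 and 6.02% against 11.03% from 10 to 20, where the difference was −5.00 points (−6.42 to −3.31). From 20 to 50 they were 4.26% and 7.38%, and the interval held 0. Intervals here and below cover counting error only, since each list was 1 library.

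H3K27ac was found at fewer HOXA13-only sites than joint sites in both pieces of the limb. In DFL, 1382 of the 6750 sites overlapped an H3K27ac region (20.5%, 19.5 to 21.5%), beside 33.3% of all HOXA13 regions with a −log10 q of at least 5. Joint sites did so at 36.0%, and the difference was −15.5 points (−16.6 to −14.4). In PFL, 1476 HOXA13-only sites overlapped H3K27ac (21.9%, 20.9 to 22.9%), beside 29.7% of all HOXA13 regions at that threshold and 31.3% of joint sites, a difference of −9.43 points (−10.5 to −8.31). HOXD13-only sites, of which many lay next to a TSS, overlapped H3K27ac at 37.7% in DFL and 37.6% in PFL. In neither piece was H3K27ac called at 4964 HOXA13-only sites (73.5%), against 59.5% of joint sites.

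The lower overlap was present within classes of HOXA13 strength. In DFL it was 20.7% against 30.1% at a −log10 q from 5 to 10, 20.4% against 33.8% from 10 to 20, and 14.2% against 38.4% from 20 to 50, where the difference reached −24.2 points (−29.1 to −17.4). The share at joint sites was higher in each stronger class, and that at HOXA13-only sites was not. In PFL the differences in the same classes were −6.63, −7.34 and −12.2 points, and each interval was below 0. Region length moved with these shares, and its part was not tested apart from that of strength. With the summit required to lie inside the H3K27ac region the DFL shares were 13.1% and 19.7%, a difference of −6.67 points (−7.57 to −5.74), and the PFL shares 15.2% and 20.2%. Among regions up to 300 bp, which were 2373 of the HOXA13-only sites, the DFL shares were 14.96% and 22.41% and the PFL shares 16.65% and 21.45%. Among regions longer than 300 and up to 400 bp the differences were −7.17 points (−9.07 to −5.20) in DFL and −3.70 points (−5.63 to −1.70) in PFL. Among those over 400 and up to 600 bp they were −6.11 (−8.36 to −3.75) and −1.09 (−3.38 to 1.30), so that the PFL interval held 0. Among those over 600 bp they were −4.58 (−9.37 to 0.345) and −0.303 (−4.98 to 4.59), and both intervals held 0.

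HOXA13-only sites also differed from joint sites in the piece of limb in which they were acetylated. Both pieces had H3K27ac at 1072 sites (15.9%), DFL alone at 310 (4.59%) and PFL alone at 404 (5.99%). Joint sites were acetylated in DFL alone more often (9.18%) and in PFL alone less often (4.51%), and the difference for PFL alone was 1.48 points (0.887 to 2.11) towards the HOXA13-only sites. With the summit inside the H3K27ac region, PFL alone was at 5.08% and 4.90%, and the difference of 0.181 points (−0.372 to 0.777) no longer excluded 0. Of the 714 HOXA13-only sites with H3K27ac in 1 piece alone, 43.4% were DFL sites (39.8 to 47.1%), compared with 67.0% of the 4488 such joint sites, a difference of −23.6 points (−27.5 to −19.7). The 110 such HOXD13-only sites had 50.9% (41.7 to 60.1%). HOXA13-only sites differed from these by −7.49 points (−17.3 to 2.42), an interval that held 0. Over all H3K27ac regions called in 1 piece alone, DFL held 37.7%. The PFL list was the longer one, with 69503 regions against 59804. The part of list length in that share was not tested. With the lists cut to 59804 regions each, the DFL share was 50.6% for HOXA13-only and 74.2% for joint sites, a difference of −23.6 points (−27.6 to −19.6). By class of strength the DFL share of HOXA13-only sites was 45.0%, 39.1% and 21.4%, the last from 3 of 14 sites, while that of joint sites was 58.4%, 63.0% and 70.4%. The DFL share also moved with region length, in classes up to 300, 400 and 600 bp and above. It was 39.5%, 42.3%, 42.8% and 61.5% for HOXA13-only sites and 55.5%, 58.5%, 62.8% and 73.4% for joint sites. The part of length in the difference was not tested. The summit rule gave DFL shares of 36.5% and 47.7%, a difference of −11.2 points (−15.6 to −6.74). By that rule the difference from HOXD13-only sites was −11.3 points (−21.25 to −1.41). Where both pieces were acetylated, the fold enrichment was higher in DFL at 42.4% of HOXA13-only sites (39.4 to 45.3%) and at 52.2% of joint sites (51.1 to 53.2%). These folds belong to separate libraries and were not scaled to each other.

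**Figure D2:**
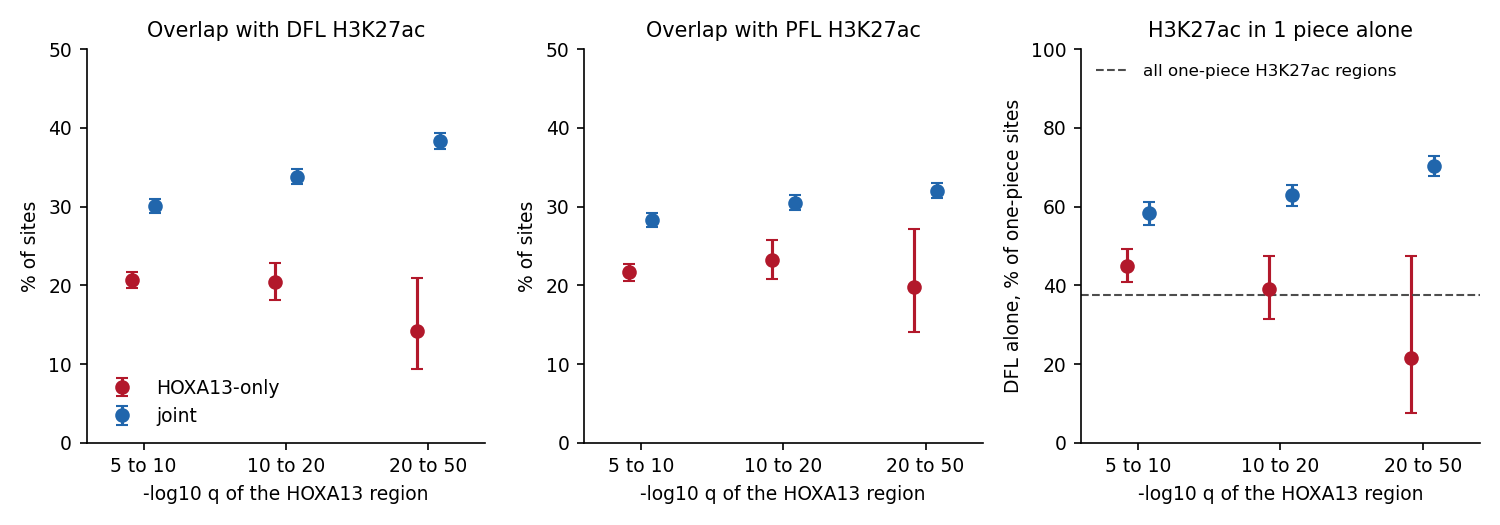
Share of HOXA13-only (red) and joint (blue) sites that overlapped H3K27ac regions of DFL (left) and PFL (middle), and DFL share of the sites with H3K27ac in 1 piece alone (right), in percent on the y axis, by −log10 q of the HOXA13 region on the x axis. Points carry Wilson 95% intervals and the dashed line at 37.7% gives all H3K27ac regions called in 1 piece alone. HOXA13-only sites lie below joint sites in every class shown, from 14.2 to 20.7% against 30.1 to 38.4% in DFL.

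The acetylated regions met by HOXA13-only sites had about the fold enrichment of those met by joint sites. Their median was 3.26 in DFL and 3.48 in PFL, next to 3.39 and 3.49 for joint sites and to 2.89 and 2.88 over all regions of these lists. HOXA13-only sites with H3K27ac in both pieces were nearer to genes than the rest, with a median of 16646 bp to a TSS and 36.1% within 2 kb, whereas those with H3K27ac in neither piece had a median of 66233 bp and 4.15%. Away from genes, at sites over 50 kb from any TSS, DFL H3K27ac was met by 14.6% and PFL H3K27ac by 15.4% of HOXA13-only sites, against 29.6% and 24.4% of joint sites. The lower share was not particular to HOXA13-only sites there, since HOXD13-only sites had 13.4% and 14.9%, and HOXA13-only sites differed from them by 1.25 points (−1.93 to 4.02) in DFL and 0.451 points (−2.84 to 3.36) in PFL.

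Polycomb and CTCF were met by few HOXA13-only sites. H3K27me3 of either piece was found at 164 sites (2.43%, 2.09 to 2.82%), beside 2.24% of all HOXA13 regions with a −log10 q of at least 5. The difference from joint sites was 0.231 points (−0.148 to 0.655), and that for any overlap with DFL H3K27me3 was 0.591 points (0.310 to 0.921), from shares of 1.47% and 0.875%. It varied with place and rule. Over 50 kb from a TSS, H3K27me3 of either piece was at 0.853% of HOXA13-only sites (0.598 to 1.215%) and 1.40% of joint sites (1.24 to 1.58%). With the summit inside the H3K27me3 region the differences were 0.484 points (0.260 to 0.757) in DFL and 0.424 points (0.117 to 0.778) in PFL. Of these 164 sites, 51.2% lay within 2 kb of a TSS and the median GC content around the summit was 49.5%, against 43.6% for all HOXA13-only sites. CTCF of either piece was found at 601 sites (8.90%, 8.25 to 9.61%), beside 8.88% of all HOXA13 regions at that threshold. The difference from joint sites was 0.0334 points (−0.693 to 0.799), but it varied with class and rule. It was −0.668 points (−1.625 to 0.315) at a −log10 q from 5 to 10 and −2.44 points (−3.88 to −0.716) from 10 to 20. With the summit inside the CTCF region the differences were 1.08 points (0.474 to 1.72) in DFL and 1.29 points (0.683 to 1.94) in PFL. The CTCF regions met had a median fold of 13.1 in DFL and 12.3 in PFL, compared with 7.77 and 7.56 over all CTCF regions. Those met by joint sites (10.95 and 11.03) and HOXD13-only sites (10.1 and 10.4) were also above all regions. Of the 601 sites, 389 had no H3K27ac, which is 5.76% of HOXA13-only and 3.94% of joint sites, a difference of 1.82 points (1.25 to 2.44). That difference was 1.28 points (0.526 to 2.06) at a −log10 q from 5 to 10 and −0.721 points (−1.74 to 0.597) from 10 to 20. No region of the 6 samples was met by 4480 HOXA13-only sites (66.4%), against 54.4% of joint sites (difference 11.9 points, 10.7 to 13.2).

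Sites on chromosome 18 were left out of those named here and below. The 12 strongest HOXA13-only sites of the other chromosomes showed little chromatin signal. Of them, 11 overlapped none of the 6 lists, where 66.4% of all HOXA13-only sites did so. Of the 12, 8 lay over 50 kb from a protein-coding TSS, as did 52.1% of all HOXA13-only sites. The strongest, chr3:75891050-75891530, lay in an intron of Golim4, which encodes a Golgi membrane protein, 65637 bp from its TSS. It had a HOXA13 fold of 11.5 and 81 fragments at the summit, and the nearest HOXD13 region was 18786 bp away. The second, chr5:61117294-61117701, lay in a gene desert 691294 bp from the TSS of G6pd2 and 227043 bp from a HOXD13 region, with a fold of 10.8. The ninth, chr11:85935255-85935712, was 38720 bp from the TSS of Tbx4, a T-box factor of hindlimb identity, with a fold of 8.62, and its window holds CAATAAA. The one with H3K27ac, chr14:62171260-62171931 near Dleu7, had H3K27ac folds of 2.38 in DFL and 2.64 in PFL. Of all 144 HOXA13-only sites with a −log10 q of at least 20, 107 (74.3%) met none of the 6 lists, 31 (21.5%) met H3K27ac, 9 (6.25%) met CTCF and 0 met H3K27me3.

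Among sites with H3K27ac in DFL alone, the strongest by HOXA13 was chr2:47872595-47873254, 941119 bp from the nearest TSS, that of the activin receptor gene Acvr2a. Its HOXA13 fold was 7.04 and its DFL H3K27ac fold 6.15, with a −log10 q of 36.3. The second, chr9:35307691-35308020, 39988 bp from Rpusd4, had a HOXA13 fold of 3.34 and a DFL H3K27ac fold of 3.87. The fourth lay next to Hoxa13 itself, at chr6:52262393-52262896 and 1756 bp from its TSS, in an exon of Gm27985, annotated as a noncoding RNA. There HOXA13 had a fold of 4.28 and DFL H3K27ac a fold of 1.45 with a −log10 q of 7.66. The seventh lay 310919 bp from Rtl1, an imprinted retrotransposon-derived gene needed in the placenta, and its summit was 536 bp from the 5′ end of the noncoding 4930511J24Rik.

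Among sites with H3K27ac in PFL alone, 5 of the 6 strongest lay in introns, of Apbb2, Arhgef33, Fam13a, Anxa2 and Cpne5, and introns held 50.2% of all HOXA13-only summits. The first, chr5:66569271-66569724 in Apbb2, an adaptor of the amyloid precursor protein, had a HOXA13 fold of 7.70 and a PFL H3K27ac fold of 2.02. The acetylated regions of these 6 sites were weak, with folds from 2.01 (Anxa2, which encodes the calcium-binding annexin A2) to 2.49 (near Dclk3). None of the 6 had a HOX13 motif in its window, and 12.53% of all HOXA13-only sites had one.

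The strongest site on H3K27me3, chr14:63269670-63270114, lay in an intron of Gata4, a zinc finger factor of heart and gut, 24629 bp from the nearest start of its basic transcripts and 1792 bp from the outermost 5′ end of the gene. It had a HOXA13 fold of 5.24 and H3K27me3 folds of 1.83 in DFL and 1.62 in PFL. The second, chr5:119724226-119724545, was 53392 bp from Tbx3, a T-box factor of the limb margins, and had H3K27me3 in DFL alone, with a fold of 2.80 and a −log10 q of 1.40. A site in an intron of Itga11, an integrin gene of collagen-producing cells, was 1416 bp from its TSS and had H3K27ac folds of 4.61 in DFL and 5.36 in PFL next to a PFL H3K27me3 fold of 3.96. At this resolution both marks were called over the same site, and whether they were on the same cells was not tested.

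CTCF of both pieces was met by 529 HOXA13-only sites. The strongest, chr6:113076068-113076607, lay in Gt(ROSA)26Sor, the ubiquitously active locus used for knock-ins, 1063 bp from a TSS of Setd5. It had a HOXA13 fold of 5.25, CTCF folds of 3.48 in DFL and 4.81 in PFL, and H3K27ac folds of 3.48 and 3.26, and a HOXD13 region was only 186 bp away. The second, chr7:142580363-142582208, was the longest of all HOXA13-only sites at 1846 bp and its summit lay 3150 bp from the 5′ end of H19, the imprinted noncoding RNA gene. HOXA13 had a fold of 4.66 there over a raised local background of 15.7 fragments, and CTCF had folds of 6.32 in DFL and 7.08 in PFL. The third lay in an intron of Nrp2, a semaphorin receptor, with CTCF folds of 16.5 and 16.3, and the fourth 7360 bp from Sst, the somatostatin gene, with 7.06 and 13.7.

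The shares of HOXA13-only sites in the 2 Hox landscapes are given beside the 17.1% over all HOXA13 regions. The HoxD landscape between Atp5g3 and Hnrnpa3 (chr2:73911326-75659261) held 14 of them and 109 joint sites, so that 11.4% of its HOXA13 regions were HOXA13-only (6.90 to 18.2%). The HoxA landscape from Skap2 to Jazf1 (chr6:51857422-53068631) held 8 and 88, or 8.33% (4.28 to 15.6%). The HoxD interval held the share of all regions and the HoxA interval lay below it. In the HoxD landscape 4 sites had H3K27ac in DFL alone and all 4 lay on the centromeric side of the cluster, nearest to Lnpk, with folds from 2.27 to 3.39. The 2 sites with H3K27ac in PFL alone lay on the telomeric side, nearest to Mtx2, at chr2:74907608-74907936 and chr2:75224546-75224891, with folds of 2.56 and 3.42. One of the centromeric sites, chr2:74300575-74300829 in an intron of 4930441J16Rik, also met CTCF, with folds of 16.4 in DFL and 16.1 in PFL. A site 2729 bp from a TSS of Hoxd11 and 37 bp from the 5′ end of that gene held a HOX13 motif and had H3K27ac folds of 1.36 and 1.48 and a PFL H3K27me3 fold of 1.62.

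At the HoxA cluster, a site at chr6:52257113-52257384, 3572 bp from the TSS of Hoxa13, met CTCF with folds of 13.9 in DFL and 12.8 in PFL, and no H3K27ac. A site at chr6:52248278-52248456, 2550 bp from Hoxa11 in an exon of its antisense gene Hoxa11os, had the lowest HOXA13 fold (1.94) and the highest local background (50.1 fragments) of all 6750 sites. Its 98 fragments were far above the median of 27. The local background at the other 3 sites within the HoxA and HoxD clusters ran from 12.8 to 17.2 fragments, against a median of 6.10 over all HOXA13-only sites, and a fold is read against it.

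Protein-coding genes with a HOXA13-only site within 50 kb of their 5′ end numbered 4734, or 21.8% of the 21701 genes, and a median gene had 0. Several lists of limb genes stood above that share. Among posterior Hox genes and Evx genes, 12 of 18 had one (66.7%, 43.8 to 83.7%), and Hoxa9, Hoxa10, Hoxa11 and Hoxa13 each had 3, which are largely the same sites since their windows overlap. Hoxd9 to Hoxd13 and Evx2 had 1 each, and their windows overlap too. The interval counts these neighbouring genes as independent and is therefore too narrow. Limb mesenchyme genes followed with 8 of 14 (57.1%, 32.6 to 78.6%), among them Tbx5, which sets up the forelimb, Twist1, Osr1 and Alx4. The lists were short and their shares lay above the background also for joint sites, which were near all 18 posterior Hox and Evx genes and all 14 mesenchyme genes, and near 58.7% of all genes.

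Signalling genes of the limb were counted by pathway, and differences between the lists were not tested. Of 27 Wnt genes 14 had a HOXA13-only site within 50 kb (51.9%, 34.0 to 69.3%), led by the receptor gene Fzd7 with 4, then the antagonist genes Dkk2 and Sfrp2, the feedback gene Nkd1 and the ligand gene Wnt3 with 2 each. Of 25 genes of BMP and TGF-beta signalling 11 had one (44.0%, 26.7 to 62.9%), among them the antagonist gene Chrd and the inhibitory Smad6 with 3 each. FGF genes (4 of 18, 22.2%) and Hedgehog genes (3 of 13, 23.1%) were close to the share of all genes, although joint sites were near all 18 FGF genes. Ptch1, the Hedgehog receptor, had 2 and Gli2 and Shh 1 each. Among 16 cartilage and joint genes 8 had one, with 4 at Runx3 and 3 each at Runx2 and Sox5, which act in bone and cartilage formation. Distal limb genes (10 of 20) had 2 each at Msx2, Lhx9 and Dlx6, and proximal limb genes (6 of 15) had 1 each at Meis2, Shox2, Irx3 and Emx2.

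Lists of other cell types served as a reference. Muscle genes had 8 of 15 (53.3%), including Pax3 and Myf5, Eph and ephrin genes 7 of 13, anterior Hox genes 11 of 23 and neural and glial genes 7 of 18 (38.9%). Ectoderm genes (4 of 15, 26.7%), housekeeping genes (4 of 20) and endothelium and blood genes (3 of 17, 17.6%) were at or near the share of all genes. Promoters of 3 of 4 muscle markers carried H3K27ac in PFL and 0 of 4 in DFL, ectoderm markers carried it at 4 of 4 in DFL and 2 of 4 in PFL, and 0 of 5 neural markers carried it in either piece. All 4 markers of limb mesenchyme (Prrx1, Prrx2, Tbx5 and Twist1) carried H3K27ac in both pieces. Distal limb markers carried it at 7 of 8 in DFL and 8 of 8 in PFL, and proximal limb markers at 5 of 6 and 6 of 6. The promoter calls of these limb markers thus did not separate the 2 pieces. The part of muscle, ectoderm and other non-limb cells in the HOXA13-only sites was not tested.

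**Figure D3:**
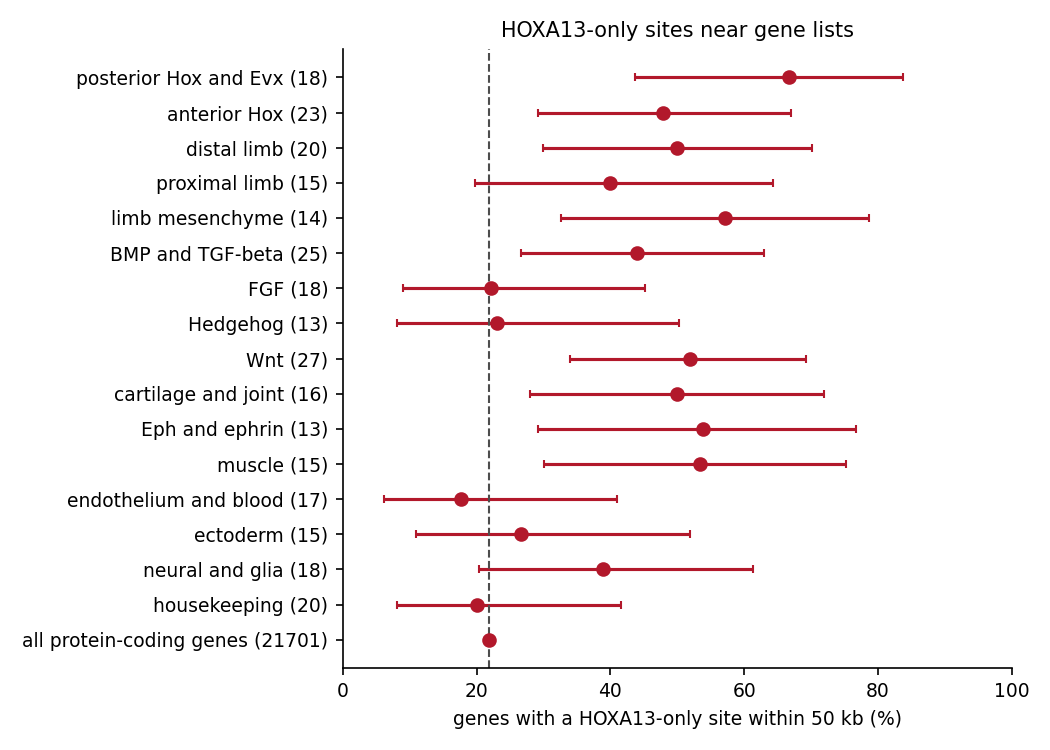
Share of the genes of each list with at least 1 HOXA13-only site within 50 kb of the 5′ end (x axis, percent, points with Wilson 95% intervals), with the number of genes of each list in brackets on the y axis. The dashed line marks the 21.8% of all protein-coding genes. Posterior Hox and Evx genes were highest at 66.7% and endothelium and blood genes lowest at 17.6%. Neighbouring Hox genes have overlapping windows, so the intervals of the Hox lists are too narrow.

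Counted by the nearest TSS, 4087 genes were nearest to at least 1 HOXA13-only site and 164 genes to 5 or more. Sox9, the master regulator of cartilage, was nearest to the most, with 12 HOXA13-only and 35 joint sites, and 1 of the 12 lay within 50 kb. Mecom, Tenm3, Zfhx3 and Fat3 followed with 11 each, Rbfox1, Epha4 and Maf with 10, and Camta1 and Diaph3 with 9. The length of DNA nearest to each gene differs, and its part in these counts was not tested. The numbers of joint sites nearest to the same genes ranged from 12 at Camta1 to 67 at the teneurin gene Tenm3, so that the ratio of the 2 kinds of site differed among them.

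The sequence at HOXA13-only sites carried the HOX13 motif above the genome level. It was present within 50 bp of the summit at 846 sites (12.53%, 11.8 to 13.3%), and in 2.94% of 127951 windows of the same length placed every 20 kb along the genome. Joint sites had it at 14.6% and the difference was −2.08 points (−2.94 to −1.19). Among sites with a −log10 q from 5 to 10 the shares with it were 12.6% and 12.1%, a difference of 0.427 points (−0.641 to 1.52), and in the 2 stronger classes they were 12.7% against 14.9% and 10.6% against 16.3%, where the intervals also held 0. Matches were centred on the summit, at 0.153 per 100 sites and bp in the 20 bp after it against 0.0267 at the far end of the 200 bp examined. HOXD13-only sites had the motif at 9.16%, which was 3.37 points (1.73 to 4.89) below HOXA13-only sites. Over 50 kb from a TSS the shares were 12.4% of HOXA13-only and 11.9% of HOXD13-only sites, and the interval of the difference (−2.50 to 3.15) held 0.

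The 2 forms of the motif did not move together. CAATAAA was present at 9.87% of HOXA13-only and 12.7% of joint sites (difference −2.82 points, −3.59 to −2.00), whereas TCGTAAA, which has a CpG, was present at 2.79% and 2.11% (difference 0.678 points, 0.278 to 1.12). By class of strength, the CAATAAA difference was −0.774 points (−1.75 to 0.228) at a −log10 q from 5 to 10 and −2.75 (−4.56 to −0.699) from 10 to 20. The TCGTAAA difference was 1.20 points (0.717 to 1.72) in the first of these and 0.421 (−0.431 to 1.58) in the second, and both intervals held 0 from 20 to 50. Against 0.151% of genome windows, TCGTAAA was 18.5 times as frequent at HOXA13-only sites, the highest ratio of any motif searched. HOXD13-only sites had it at 0.992%. The short homeodomain core TAATTA was less frequent at HOXA13-only than joint sites (6.13% and 8.77%, difference −2.64 points, −3.27 to −1.97). TGACAG, the site of MEIS cofactors, was at the genome level of 6.39% with 6.34%. Joint sites had it at 5.62%, a difference of 0.718 points (0.106 to 1.37), and at a −log10 q from 5 to 10 the interval held 0. GGGCGGG, the SP and KLF site of CpG-rich promoters, was present at 0.504% of HOXA13-only sites, at 1.04% of joint sites and at 6.83% of HOXD13-only sites.

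Differences from joint sites were small for the other motifs, and the intervals of those for AP-1 (TGANTCA), TEAD (GGAATG), RUNX (TGTGGTT) and both CTCF cores (AGGGGGC and AGGTGGC) held 0. Those for GATA (0.631 points, 0.139 to 1.17) and T-box (0.206, 0.00416 to 0.456) lay above 0. The E-box CATCTG (−0.900, −1.63 to −0.128), forkhead (−0.514, −0.953 to −0.0315) and PBX-HOX (−0.305, −0.546 to −0.0202) lay below 0. At a −log10 q from 5 to 10 the intervals of these motifs held 0. The T-box site AGGTGTGA was found at 0.770% of HOXA13-only, 0.564% of joint and 0.233% of HOXD13-only sites, beside 0.393% of genome windows. The others shown in the plot of motif ratios were PBX-HOX (TGATTTAT), PITX (TAATCC), SOX (ACAATG), SOX and TCF (ACAAAG), forkhead (GTAAACA), ETS (CCGGAAG), NFY (CCAATCA), GLI (TGGGTGGTC) and YY1 (AAGATGGC), each counted on both strands. AGATAA, the GATA site, was below the genome level of 6.87% in all 3 kinds of site, at 4.10%, 3.47% and 2.86%.

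**Figure D4:**
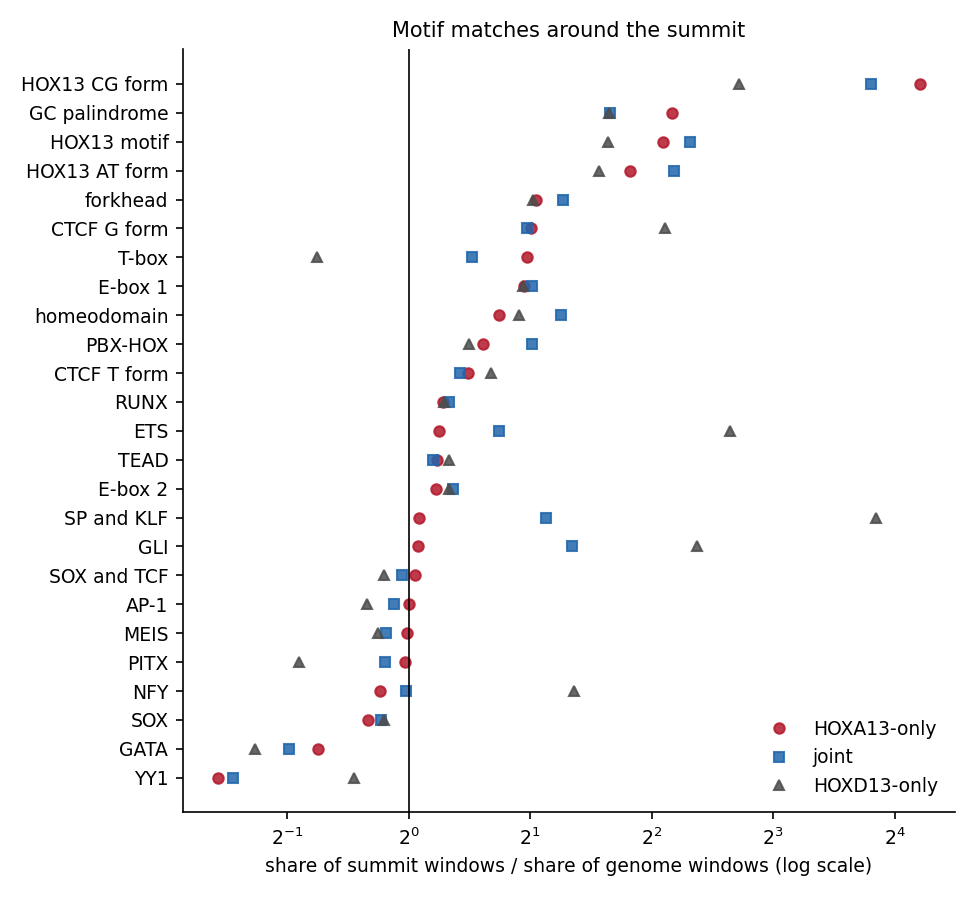
Share of the summit windows (50 bp to each side) with each motif divided by the share of genome windows (x axis, log scale) for HOXA13-only (red circles), joint (blue squares) and HOXD13-only sites (grey triangles), with motifs on the y axis in order of the HOXA13-only value. The CG form of the HOX13 motif stands highest at 18.5 for HOXA13-only sites, and the SP and KLF motif is near 1 there and at 14.4 for HOXD13-only sites. The vertical line marks a ratio of 1, E-box 1 and 2 are CAGCTG and CATCTG, and GC palindrome is CCCNNGGG.

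The words that set HOXA13-only sites apart from joint sites were GC-rich. All words of 7 letters were ranked on even-numbered chromosomes by the difference in share, and the 10 highest and 10 lowest were then read on odd-numbered chromosomes and X, with 3552 HOXA13-only and 16974 joint sites. All 10 of the higher words were higher there and all 10 of the lower words lower. CTGGGGA was found at 5.26% against 3.45% (difference 1.81 points, 1.07 to 2.64), CCCAGAG at 4.87% against 3.33% (1.54 points, 0.824 to 2.34) and CCCAGGG at 5.26% against 4.04% (1.22 points, 0.470 to 2.06). For 6 of the 10, such as CAGAGGA, the interval on odd chromosomes held 0. Lower words were AT-rich and contained parts of the HOX13 motif, such as AATAAAA at 11.3% against 15.1% (−3.76 points, −4.90 to −2.55) and CAATAAA itself. The words were ranked over all sites without matching for strength. At a −log10 q from 5 to 10 the CAATAAA difference was −0.774 points (−1.75 to 0.228).

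Of the 10 higher words 7 hold CCC or GGG. In some of these, such as CCCAGAG, the CCC cannot be the end of a match to CCCNNGGG. The palindrome CCCNNGGG forms the core of the site bound by early B-cell factors (EBF proteins). It was chosen after its values were seen and is given without a test. It was present within 50 bp of the summit at 6.95% of HOXA13-only, 4.88% of joint and 4.84% of HOXD13-only sites and in 1.55% of genome windows. In the classes of strength it was found at 5.95%, 11.3% and 12.1% of HOXA13-only sites and at 3.78%, 5.03% and 5.36% of joint sites. By length it was found at 8.26% against 5.75% of regions up to 300 bp, 6.32% against 5.87% up to 400 bp, 6.64% against 5.09% up to 600 bp and 4.18% against 4.08% above, so that the shares were close among regions of 300 to 400 bp and over 600 bp. Matches at HOXA13-only sites were centred on the summit, with 0.0963 per 100 sites and bp in the 20 bp after it and 0.0237 at the far end. The strongest site, in Golim4, and the fourth, near 4930535I16Rik, hold it in the sequences above, and 42 sites held both it and the HOX13 motif. Neither was found at 5477 sites (81.1%), which says only that these letters were not in these windows.

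**Figure D5:**
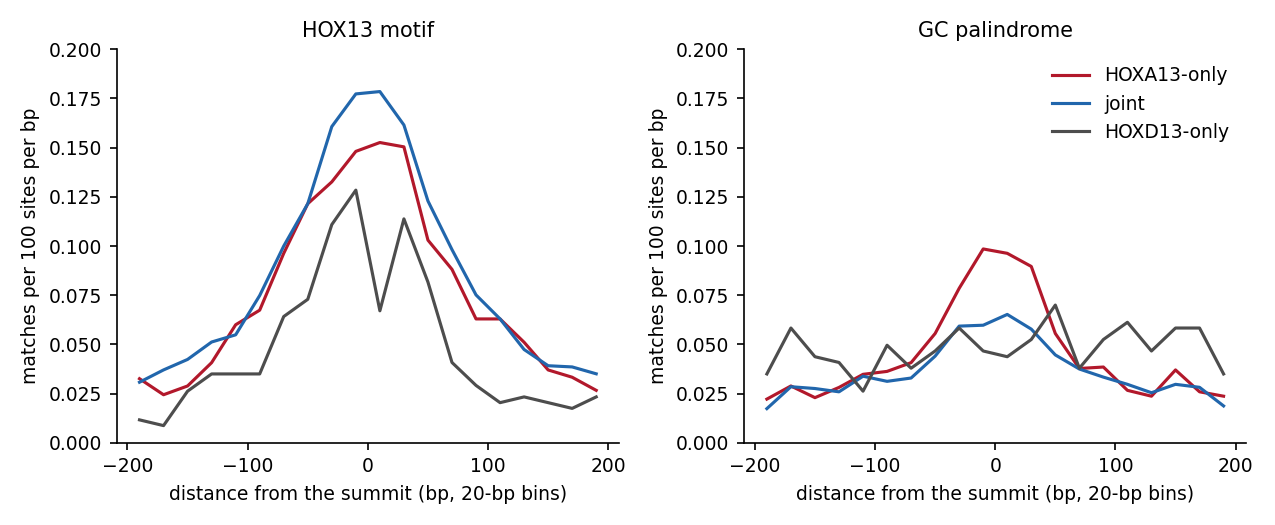
Matches per 100 sites and bp (y axis) by distance from the summit in 20-bp bins (x axis) for the HOX13 motif (left) and the palindrome CCCNNGGG (right), at HOXA13-only (red), joint (blue) and HOXD13-only sites (grey). Both motifs peak at the summit of HOXA13-only sites, at 0.153 and 0.0985, and the palindrome peaks at 0.0652 at joint sites.

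Among HOXA13-only sites the HOX13 motif was most frequent where no acetylation was called. It was found at 13.8% (12.9 to 14.8%) of the 4964 sites with H3K27ac in neither piece and at 8.49% (6.97 to 10.3%) of the 1072 with H3K27ac in both. Sites with H3K27ac in DFL alone had it at 8.06% (5.52 to 11.6%) and the 404 with PFL alone at 10.6%. GC content moved with these shares, with medians of 42.6% at sites with H3K27ac in neither piece and 47.5% at sites with it in both, and its part was not tested. The palindrome was more even, at 7.05% of sites with H3K27ac in neither piece and 6.06% of those with it in both, and it was at 12.2% (8.04 to 18.1%) at the 164 sites with H3K27me3.

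In base composition HOXA13-only sites were close to joint sites. The mean GC content of the windows was 43.9%, against 42.9% for joint sites, 48.2% for HOXD13-only sites and 41.8% for genome windows. A mean of 1.28 CpG was found per window, against 1.42, 3.02 and 0.832. Soft-masked repeats covered 10.9% of the windows at HOXA13-only sites, 10.3% at joint and 16.4% at HOXD13-only sites, and 34.4% of genome windows.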

How the data were processed

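The deposited files are peak lists, 1 per library: 6 of the samples and 2 of HOXA13 and HOXD13, which belong to no sample. According to the labels and the study's methods, the authors trimmed reads with cutadapt, aligned them to mm10 with bowtie2, filtered them with SAMtools and called peaks with MACS2 in each library by itself, without an input control and with summits. The deposited fold enrichment is a ratio of summit pileup to local background, and the authors' −log10 p and −log10 q belong to that enrichment. The lists hold no read totals, and the read totals of the study's reporting summary were not used here. Depth was read from the background solved from fold and −log10 p.

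Lines with the same interval were collapsed, keeping the highest −log10 q, and chromosomes 1 to 19 and X were used. Overlap meant at least 1 bp. A TSS was the start of a transcript in the basic GENCODE vM21 set of 21701 protein-coding genes with a unique symbol, and sequence was read from GRCm38 (mm10). Shares carry Wilson 95% intervals and differences Newcombe intervals, computed with Python 3.11.15, pysam 0.24.0 and scipy 1.17.1. With 1 library per list no p-value was computed. Each group had 1 sample.

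The sites named were the 12 with the highest −log10 q, the 8, 6, 6 and 4 highest with H3K27ac in DFL alone, H3K27ac in PFL alone, H3K27me3 and CTCF of both pieces, all sites of the 2 Hox landscapes, the 10 genes nearest to most sites and up to 4 genes per list with most sites within 50 kb, with chromosome 18 left out. Sites, gene lists and motifs were chosen with earlier results of these data known, and the 7-letter words and the palindrome were added after the data had been seen. Overlap, motif and pileup code was tested on simulated data.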

Additional observations from a re-analysis of the deposited data

How the results depend on the processing

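The H3K27ac differences from joint sites kept their sign under the alternatives run, and 16 of the 54 values moved by less than their interval. Some of these 16 could hardly move. Leaving out sites in 5 or more of the 6 lists removed only 8 of 6750, and lists of equal size left the shorter DFL H3K27ac list uncut. The HOX13 motif difference from joint sites, −2.08 points over all sites, was 0.427 at a −log10 q from 5 to 10, and that in CTCF without H3K27ac, 1.82, was −0.721 from 10 to 20, where both intervals held 0. Over 50 kb from a TSS the differences from HOXD13-only sites in H3K27ac turned from −17.3 to 1.25 points in DFL and from −15.8 to 0.451 in PFL, and for the motif went from 3.37 to 0.536, and the cause was not tested. That in PFL H3K27ac alone from joint sites was 0.181 by the summit rule. By the same rule the CTCF differences from joint sites were 1.08 points in DFL and 1.29 in PFL. With a summit required inside the region, 13.1% of HOXA13-only sites met H3K27ac in DFL and 15.2% in PFL, 1.67% met PFL H3K27me3 and 6.73% CTCF, and the differences from joint sites in H3K27ac were −6.67 and −4.94 points. With the other lists held to a −log10 q of at least 5, the shares were 16.0%, 17.8% and 1.63% for DFL H3K27ac, PFL H3K27ac and PFL H3K27me3. Without sites next to a TSS they were 16.0%, 17.2% and 1.21%, and CTCF 8.21%. Without sites within 1 kb of HOXD13 they were 18.8% and 20.3% for H3K27ac, and 8.47% were near a TSS. At a HOXA13 −log10 q of at least 10, PFL H3K27me3 fell to 1.47%, CTCF to 6.46% and the TSS share to 5.81%. The TSS share was 7.05% within 1 kb and 12.3% with all transcripts, and the HOX13 motif was found at 6.59% within 25 bp and 20.4% within 100 bp. With lists of equal size PFL H3K27ac was 20.4% and the DFL share of sites acetylated in 1 piece 50.6%, with the summit rule 36.5%, and by class of strength 39.1% from 10 to 20 and 21.4% from 20 to 50. Differences by class were −9.39, −13.4 and −24.2 points in DFL and −6.63, −7.34 and −12.2 in PFL. Comparisons by class, by distance, by summit for differences and by equal size were chosen after seeing the data.

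No paired analysis was possible because each group had 1 sample. Each HOX list was 1 library, so no spread between replicates was had. HOXD13 fragments under the calling level leave a site in the HOXA13-only set, and 7014 joint sites rested on HOXD13 regions with a −log10 q under 5. The HOX lists were labelled as forelimb of an earlier stage than the chromatin lists.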
